A study of Mus musculus with 3 samples.

Results

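The loci of the myeloid regulators Spi1, Cebpa and Irf8 were examined for histone marks in blood stem cells of old mice. The members were every H3K27ac and every H3K4me1 region that overlapped a fixed window around each gene on the mouse build mm9. The windows ran from 90900000 to 90970000 on chromosome 2 for Spi1, from 35880000 to 35990000 on chromosome 7 for Cebpa, and from 123200000 to 123370000 on chromosome 8 for Irf8. Position alone chose the regions and no measured value entered the rule, although the windows were chosen with earlier results of these data known. The 3 windows held 106 regions of 248440 in all, which were 44 of 93413 H3K27ac regions and 62 of 155027 H3K4me1 regions. The cells were primary marrow-derived hematopoietic stem cells of C57BL/6 animals aged 24 months, sorted as SP-KSL-CD150+ cells, and neither a treatment nor a transgene is named for them. SP, the side population, is a dye-exclusion gate, and KSL and CD150 are surface gates for the most primitive marrow cells. Each mark was measured by chromatin immunoprecipitation sequencing in 1 library, labelled a technical replicate of biological replicate 1, and an input library of the same group was not analysed here. With 1 library per mark there is no replicate check, and p-values are not given. Peak lists hold no expression, so the labelled cell type was not checked against marker genes, and whether the animals were pooled is not given in the sources used here.

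Spi1 encodes PU.1, an ETS-family transcription factor that stem cells need and that directs myeloid and B-lymphoid development. Cebpa encodes C/EBPα, a basic leucine zipper factor required for the step from common myeloid to granulocyte-monocyte progenitors. Irf8 encodes an interferon regulatory factor that favours monocytes and dendritic cells over neutrophils and can bind DNA together with PU.1. All 3 genes are known for distal enhancers, among them the upstream regulatory element of Spi1 and, for Cebpa, an enhancer that the rule places near +37 kb. H3K27ac is an acetylation of active promoters and enhancers. H3K4me1 is a methylation that marks enhancers whether or not they are active and often flanks active promoters.

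The promoter letters are shown for Cebpa and Irf8 alone, because no promoter entry was found for Spi1. The letters are the 250 bases before the first listed start, from RefSeq on GRCm38.p6, plus strand, at chr7:35119043-35119292 and chr8:120736108-120736357. Those positions belong to another build than the regions below and were not placed among them, so no region is assigned to a promoter. Capitals mark the letters TATAAA.
Cebpa: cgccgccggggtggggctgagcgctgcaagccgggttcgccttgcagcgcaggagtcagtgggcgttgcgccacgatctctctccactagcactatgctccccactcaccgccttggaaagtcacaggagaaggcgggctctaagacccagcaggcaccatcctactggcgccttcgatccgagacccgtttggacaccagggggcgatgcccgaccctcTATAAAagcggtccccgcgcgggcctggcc
Irf8: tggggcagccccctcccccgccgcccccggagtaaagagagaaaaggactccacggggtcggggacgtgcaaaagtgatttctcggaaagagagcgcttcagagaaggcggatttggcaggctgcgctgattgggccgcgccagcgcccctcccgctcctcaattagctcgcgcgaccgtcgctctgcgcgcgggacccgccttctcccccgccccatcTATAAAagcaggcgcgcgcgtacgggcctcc
TATAAA begins 30 bases before the start in Cebpa and 31 bases before it in Irf8, and 12.4% of the 32851 promoters in the table hold these letters on either strand within the same length. GC bases made up 66.4% of the Cebpa and 67.2% of the Irf8 stretch, against a median of 52.4% over all promoters. The Cebpa stretch held 22 CpG and the Irf8 stretch 29, against a median of 6. The GC-box letters GGGCGG, counted on both strands, occurred 2 times in Irf8 and 0 times in Cebpa, and in 32.7% of all promoters. CCAAT occurred 1 time in Irf8 and 0 times in Cebpa (33.8% of all promoters), and the ETS core GGAA 1 time in each (93.4%). A second listed Irf8 start had 54.0% GC, 8 CpG and no TATAAA. These matches describe letters and not bound sites, and a link between them and the H3K27ac of the windows was not tested. The table matched 2 of the 3 members.

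Both marks were called from modest read numbers. An H3K27ac summit held a median of 13 reads over the whole list and never fewer than 8, while an H3K4me1 summit held a median of 20 and never fewer than 10. At the genome-wide background the libraries held 2.38 and 3.75 reads, so H3K27ac was the shallower of the pair. A stretch without an H3K27ac region therefore means that no summit passed the peak caller there, not that acetylation was absent. Fold values are the authors' own and give the summit over its local background.

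All 3 loci carried more H3K4me1 than the autosomes, but their H3K27ac was very unequal. H3K4me1 covered 46.9% of the Spi1 window, 23.5% of the Cebpa window and 20.9% of the Irf8 window, against 6.95% of the autosomes. H3K27ac covered 33.4% at Spi1, 6.72% at Irf8 and 0.87% at Cebpa, against 2.24% of the autosomes. The ratio to the autosomes was thus 14.9 for H3K27ac at Spi1, 3.0 at Irf8 and 0.389 at Cebpa. The same ratio for H3K4me1 was 6.76 at Spi1, 3.0 at Irf8 and 3.38 at Cebpa. Cebpa was the 1 locus of the 3 with H3K4me1 above and H3K27ac below the autosomal mean, although its 0.957 kb of H3K27ac exceeded the 0.544 kb of the median autosomal tile of that length. In numbers, there were 23 H3K27ac and 16 H3K4me1 regions at Spi1, 3 and 20 at Cebpa, and 18 and 26 at Irf8. The H3K27ac count at Spi1 was below that at Irf8, 10 against 15, when regions up to 1 kb apart were joined, and 13 against 14 when regions over a raised local background were left out.

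**Figure D1:**
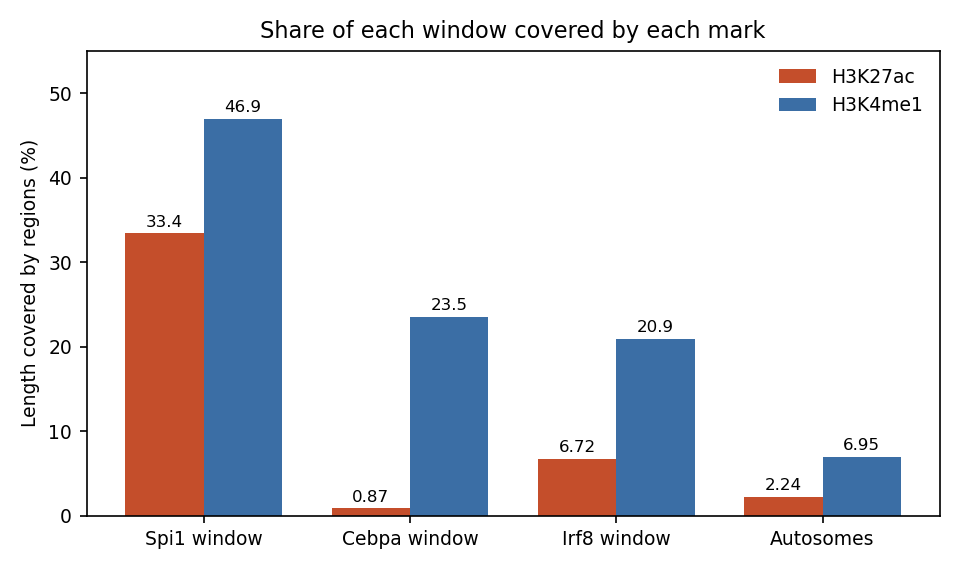
Percentage of each window's length covered by H3K27ac (orange) and H3K4me1 (blue) regions, with the autosomes up to their last region for comparison; 1 library per mark, no error bars. Cebpa has 23.5% of its window in H3K4me1 and 0.87% in H3K27ac, while Spi1 has 46.9% and 33.4%.

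Set against autosomal tiles of the same length, the Spi1 window stood near the top for both marks. At least as much acetylated length as its 23.4 kb was found in 0.221% of 35281 tiles of 70 kb, and at least as much H3K4me1 as its 32.9 kb in 1.34%. The Irf8 window, with 11.4 kb of H3K27ac and 35.5 kb of H3K4me1, was reached by 9.66% and 9.21% of 14520 tiles of 170 kb. For the Cebpa window the marks parted: 43.4% of 22446 tiles of 110 kb reached its 0.957 kb of H3K27ac, and 7.69% reached its 25.8 kb of H3K4me1. The tiles include gene-poor sequence, and the windows were laid around genes.

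Tiles at least as rich in H3K4me1 give a closer comparison, although they have no upper limit and each window stands at the lower edge of its set in H3K4me1. Of the 1726 tiles with at least the H3K4me1 length of Cebpa, 4 (0.232%) had no more H3K27ac than the Cebpa window, and the median acetylated length was 11.7 kb (quartiles 8.46 and 16.5 kb). Of the 473 tiles with at least the H3K4me1 length of Spi1, 15% had at least its acetylated length, and the median was 15.1 kb. Of the 1337 tiles with at least the H3K4me1 length of Irf8, 79.1% had at least its acetylated length, and the median was 16.3 kb. Among tiles with at least as much H3K4me1, Cebpa was at the low end for H3K27ac. Irf8 was just below the lower quartile of its tiles (12.0 kb), and Spi1 was above the upper quartile of its tiles (19.6 kb). These are positions among tiles of the same 2 libraries and not tests.

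**Figure D2:**
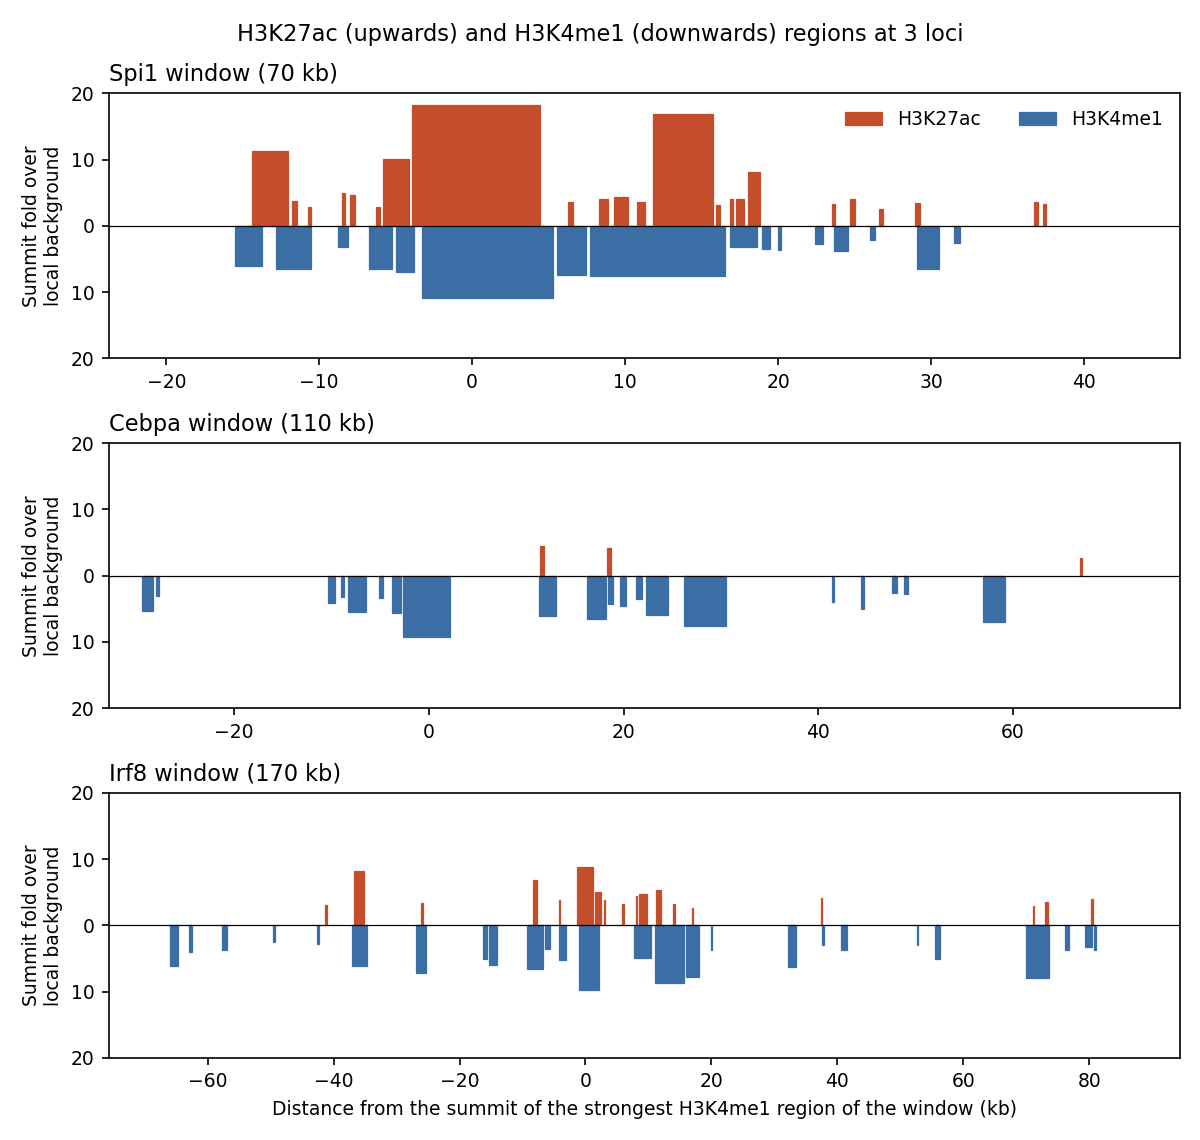
All regions of the 3 windows, drawn to scale along each window as distance in kb from the summit of its strongest H3K4me1 region; bar width is region width and bar height the summit fold, H3K27ac upwards and H3K4me1 downwards. Spi1 carries wide bars of both marks at the same places, Irf8 a central group of both, and Cebpa a row of H3K4me1 bars with 3 low H3K27ac bars.

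At Spi1, acetylation was concentrated in a few wide and strong regions. Fold ran from 2.55 to 18.3 with a median of 4.02, close to the median of 3.86 over all H3K27ac regions, and 4 of the 23 regions reached 10-fold or more (7.77% of all H3K27ac regions did). The strongest region also was the widest, from 90919774 to 90928197, 8424 bp wide, at 18.3-fold with 70 reads at its summit, and ranked 1401 in the genome by fold, within the top 1.5%. The second lay from 90935551 to 90939462, 3912 bp wide, at 16.8-fold with 56 reads, within the top 1.97%. Their summits lay 14.7 kb apart, and together these 2 regions held 52.8% of the acetylated length of the window.

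The other strong Spi1 regions lay on the low-coordinate side of these or just beyond the second. One from 90909325 to 90911705 reached 11.3-fold with 53 reads, where the local background was 1.59 times that of the genome. One from 90917877 to 90919587 reached 10.05-fold with 33 reads, and ended just before the strongest region. The fifth, from 90941787 to 90942548, reached 8.08-fold with 30 reads. The remaining 18 regions were weak, with none above 5.02-fold, and after 90942548 none of the 6 regions exceeded 4.14-fold. No H3K27ac region was called in the first 9.33 kb of the window. Slc39a13 and Mybpc3 are the protein-coding neighbours of Spi1 in the RefSeq table, and which gene each region serves was not determined, because no mm9 annotation was used here.

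H3K4me1 at Spi1 followed the acetylation closely. The strongest H3K4me1 region, from 90920423 to 90929039, was 8617 bp wide and reached 10.95-fold with 51 reads, within the top 0.389% of all H3K4me1 regions, and its summit lay 793 bp from the strongest H3K27ac summit. The widest, from 90931451 to 90940242, spanned 8792 bp at 7.55-fold and met 5 H3K27ac regions, the second-strongest among them. The next by fold ran from 90929286 to 90931193 (7.37-fold), from 90918777 to 90919928 (6.95-fold) and from 90952803 to 90954233 (6.53-fold). Between 90920423 and 90940242 the 3 H3K4me1 regions were nearly continuous. The last 14.4 kb of the window held no H3K4me1 region, although 2 H3K27ac regions of 3.55-fold and 3.25-fold lay there.

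Most regions of either mark at Spi1 met the other. This held for 18 of 23 H3K27ac regions (78.3%, exact Clopper-Pearson 95% interval 56.3 to 92.5%), against 71.7% over the whole list, a share inside that interval. It held for 11 of 16 H3K4me1 regions (68.8%, interval 41.3 to 89.0%), against 33.6% over the whole list. These intervals cover counting error only, and neighbouring regions are not independent. All 8 H3K4me1 regions of 6-fold or more met H3K27ac, where 71.2% of all such regions did, and the 5 that met none were at most 3.58-fold and at most 526 bp wide. The summit of H3K27ac lay inside an H3K4me1 region in 16 of 23 cases, against 58.2% over the list.

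Strong H3K27ac summits lay inside H3K4me1 less often than the whole list. This was the case for 25.6% of all H3K27ac regions of 10-fold or more, and for 3 of the 4 at Spi1. The exception was the region from 90909325 to 90911705, whose summit at 90910023 fell between an H3K4me1 region ending at 90909981 and one starting at 90910929. The 2 strongest summits, at 90922940 and 90937645, both lay within unbroken H3K4me1. Thus 1 of the 4 strong sites had flanking H3K4me1 and the other 3 had H3K4me1 through the summit.

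At Cebpa the H3K27ac list held 3 weak and narrow regions. The strongest ran from 35924317 to 35924637, 321 bp, at 4.43-fold with 14 summit reads. The second ran from 35931153 to 35931601, 449 bp, at 4.14-fold with 13 reads, and its summit lay 6.98 kb from that of the first. The third, from 35979757 to 35979943, was 187 bp wide at 2.61-fold with 9 reads, 1 read above the fewest of any H3K27ac summit, and 97.9% of the H3K27ac list was as strong or stronger. None reached 10-fold, as 7.77% of all H3K27ac regions did. A −log10 q of at least 5 was held by 1 of the 3 (41.4% of all), and one of at least 10 by 0 (19.2% of all). No acetylated region was called over the first 44.3 kb of the window, nor over the 48.2 kb between the second and the third region.

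H3K4me1 at Cebpa was neither weak nor sparse. The 20 regions had a median fold of 4.84, above the 4.12 of all H3K4me1 regions, and 5 of them reached 6-fold, a strength of 20.7% of all H3K4me1 regions. The strongest, from 35910172 to 35915018, spanned 4847 bp at 9.20-fold with 47 summit reads, within the top 2.34%. The second, from 35939079 to 35943330, spanned 4252 bp at 7.57-fold with 41 reads, and the summits of this pair lay 29.3 kb apart. The next were those from 35969835 to 35972016 (6.95-fold), from 35929133 to 35931031 (6.53-fold) and from 35924190 to 35925904 (6.11-fold).

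Few of these H3K4me1 regions carried H3K27ac. The window held 3 narrow H3K27ac regions, so few H3K4me1 regions could meet one. The shares below follow largely from that count and are not separate evidence. At Cebpa 2 of 20 met an H3K27ac region (10%, interval 1.23 to 31.7%), against 33.6% over the whole list. With regions up to 1 kb apart joined it was 2 of 11 (18.2%, interval 2.28 to 51.8%). Among regions of both marks whose −log10 q reached 5 it was 1 of 14 (7.14%, interval 0.181 to 33.9%), with 1 H3K27ac region left. Both of these intervals contain 33.6%, but that share is of regions neither joined nor limited by q. The whole-list shares under these 2 settings are not given here. The 2 of the 20 were the region from 35924190 to 35925904 at 6.11-fold and the one from 35931271 to 35931771 at 4.21-fold. Of the 5 regions of 6-fold or more 1 met H3K27ac, where 71.2% of all such regions did, 8 of 8 at Spi1 and 7 of 9 at Irf8. Both regions of 4 kb or more met none, where 93.2% of the 5352 H3K4me1 regions of that width in the genome met H3K27ac. With H3K27ac allowed up to 1 kb away, 4 in 20 Cebpa regions (20%) had a partner, against 46.1% over the whole list.

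**Figure D3:**
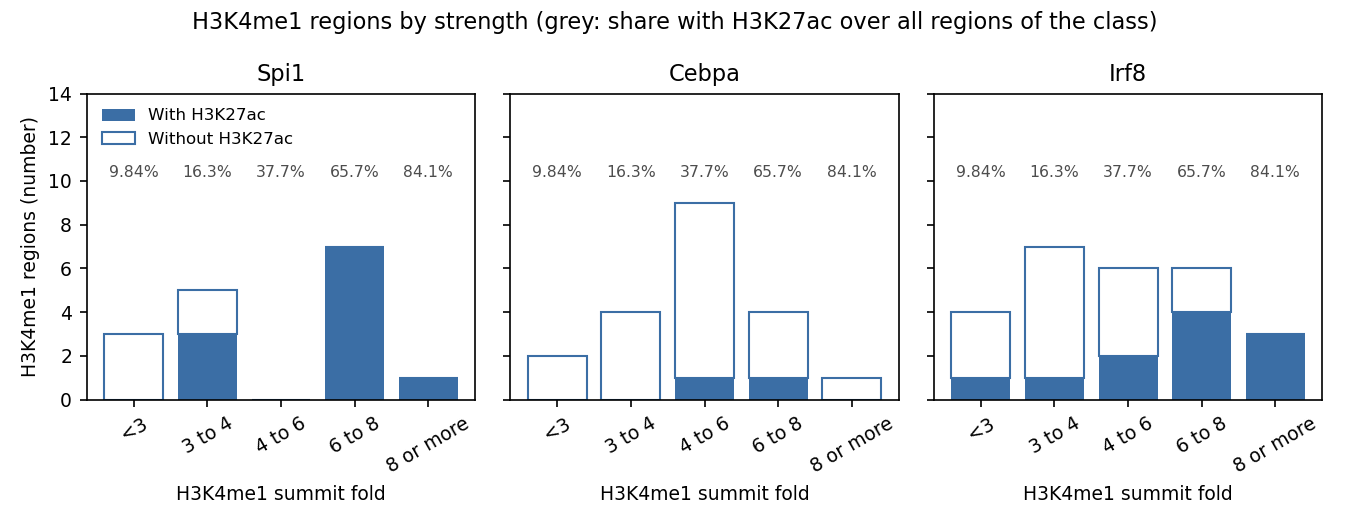
Number of H3K4me1 regions by summit fold at each locus, filled where the region met H3K27ac and open where it did not; grey figures give the share with H3K27ac over all H3K4me1 regions of that class. From 6-fold upwards Spi1 has filled bars alone, whereas Cebpa has 4 of 5 regions open.

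H3K4me1 regions that met no called H3K27ac region are named unacetylated here, and the 2 widest of Cebpa ranked high among all such regions. Of the 102942 H3K4me1 regions in the genome that met no H3K27ac, the one from 35910172 to 35915018 ranked 395 by fold and 141 by width, and the one from 35939079 to 35943330 ranked 2387 by fold and 271 by width. The median fold of the 18 unacetylated Cebpa regions was 4.84, against 3.58 over all unacetylated regions and 2.68 for the 5 at Spi1. Of the 18, 12 were above the median fold of all unacetylated regions and 12 above their median width of 493 bp. They lay a median of 16.95 kb from the nearest H3K27ac region of the window, against 5.69 kb at Irf8 and 0.593 kb at Spi1. These distances leave out regions beyond the windows, and an H3K27ac region lay 3.0 kb before the Cebpa window. They also depend on the number of H3K27ac regions, 3 at Cebpa, 18 at Irf8 and 23 at Spi1. Unacetylated regions were 5 of the 16 H3K4me1 regions at Spi1 and 18 of the 20 at Cebpa.

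At Irf8 both marks were present, with acetylation of medium strength. Fold of the 18 H3K27ac regions ran from 2.66 to 8.86 with a median of 3.88, and none reached 10-fold (7.77% of all did). The strongest, from 123274216 to 123276864, was 2649 bp wide at 8.86-fold with 29 summit reads, within the top 9.28%. The second, from 123238857 to 123240446, was 1590 bp wide at 8.27-fold with 27 reads, and lay 36.2 kb from the first, summit to summit. The third, from 123267303 to 123267956, reached 6.80-fold with 22 reads. The fourth and the fifth, from 123286830 to 123287616 and from 123277212 to 123278143, reached 5.32-fold and 5.02-fold.

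Most acetylated regions at Irf8 were grouped around the strongest one, while the second-strongest, at 8.27-fold, lay outside that group. When neighbouring regions were joined across short gaps into domains, 11 of the 18 fell into one from 123267303 to 123292740, 25.4 kb long with 7.90 kb acetylated, and H3K4me1 covered 59.5% of it. It ranked 1278 of 30221 domains by acetylated length, within the top 4.23%. The corresponding Spi1 domain ran from 90909325 to 90978575, past the window's end, with 27 regions and 24.6 kb acetylated, and ranked 149, within the top 0.493%. The larger of the 2 Cebpa domains, from 35924317 to 35931601, held 2 regions and 0.770 kb acetylated and ranked 14543. With gaps of up to 5 kb the ranks were 77 for Spi1, 733 for Irf8 and 25435 for Cebpa, of 45758 domains. The order Spi1, Irf8, Cebpa was the same by acetylated length, by highest fold and by rank of the domain.

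H3K4me1 at Irf8 was strongest where the acetylation was strongest. Its strongest region, from 123274583 to 123277849, reached 9.69-fold with 45 reads, within the top 1.38%, with its summit 223 bp from the strongest H3K27ac summit. The widest, from 123286672 to 123291314, spanned 4643 bp at 8.64-fold and met 2 H3K27ac regions. Those from 123345585 to 123349282 (8.0-fold), from 123291561 to 123293611 (7.79-fold) and from 123248668 to 123250332 (7.21-fold) followed. All 5 met H3K27ac, with partners from 2.66-fold to 8.86-fold, where 65.65% of all H3K4me1 regions of 6 to 8-fold and 84.1% of those of 8-fold or more did.

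Over all Irf8 regions, with no q limit, the meeting of the marks was close to the genome. Of the 18 H3K27ac regions 15 met H3K4me1 (83.3%, interval 58.6 to 96.4%), and of the 26 H3K4me1 regions 11 met H3K27ac (42.3%, interval 23.4 to 63.1%), and both intervals contain the genome-wide shares of 71.7% and 33.6%. With a −log10 q of at least 5 in both marks, 5 of 21 H3K4me1 regions met H3K27ac (23.8%, interval 8.22 to 47.2%). At a limit of 10 it was 3 of 12 (25%, interval 5.49 to 57.2%). Whole-list shares under these limits are not given here. The H3K27ac summit lay inside H3K4me1 in 14 of 18 regions, against 58.2% over the list. The 15 unacetylated H3K4me1 regions had a median of 3.79-fold and reached 6.33-fold at most, while the 11 acetylated ones had a median of 6.53-fold. The first 34.3 kb of the window had no H3K27ac region but 5 H3K4me1 regions, from 2.53-fold to 6.11-fold. Cox4i1 and Foxf1 are the protein-coding neighbours of Irf8 in the RefSeq table.

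**Figure D4:**
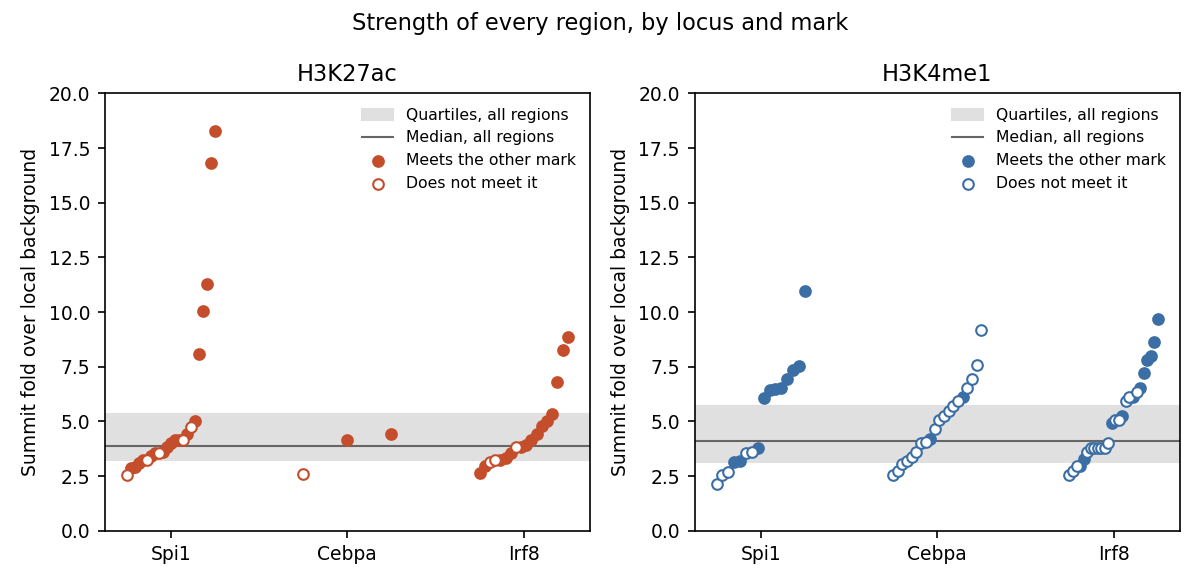
Summit fold of every H3K27ac (left) and H3K4me1 (right) region at the 3 loci, filled where the region met the other mark; the grey band and line give the quartiles and median of the whole list. The H3K27ac points of Cebpa lie at 2.61, 4.14 and 4.43, while its H3K4me1 points reach 9.20 and the highest ones are open.

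The highest H3K4me1 folds were 10.95 at Spi1, 9.69 at Irf8 and 9.20 at Cebpa, the same order as the highest H3K27ac folds of 18.3, 8.86 and 4.43, over a narrower range. The strongest H3K4me1 summits held 51 reads at Spi1, 47 at Cebpa and 45 at Irf8, whereas the strongest H3K27ac summits held 70, 14 and 29. The median H3K4me1 fold was 4.94 at Spi1, 4.84 at Cebpa and 4.98 at Irf8. Whether this order differs in other cells or in young mice was not tested.

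Strong acetylation also lay just before the Spi1 and Irf8 windows. The nearest H3K27ac regions before the windows reached 14.8-fold at Spi1 (4.70 kb away), 3.84-fold at Cebpa (3.0 kb away) and 17.1-fold at Irf8 (7.04 kb away). Those after the windows were 3.25-fold at 1.0 kb, 7.09-fold at 29.3 kb and 4.73-fold at 126.4 kb. The strong region before Irf8 exceeded each H3K27ac region inside its window.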

How the data were processed

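The members, windows and thresholds were chosen with earlier results of these data known; the 6-fold and 4 kb limits, the tiles and the TATAAA letters were chosen after seeing the values. H3K27ac and H3K4me1 were profiled in 1 library each. The submitters' processing notes name Bowtie2 2.0.6, MACS2 2.0.10.20131216 and mm9. Filters on mapping, duplicates, peak-calling options and control samples are not given in the sources used here. For each peak the authors deposited, a fold (ratio of summit pileup to local background), −log10 p and −log10 q, the summit offset, and a score that was not used. Positions were converted to count from 1.

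Regions met when they shared at least 1 bp. Summit reads k and background b were recovered from deposited fold = (k + 1)/(b + 1) and Poisson −log10 p, and a whole k returned the p within 0.001 for 100% of regions of both lists. The calculation was tested on simulated data. A local background counted as raised above 1.05 times that of the genome. Domains joined H3K27ac regions across gaps of at most 12.5 kb. Tiles were consecutive autosomal stretches of each window's length, up to the last H3K4me1 region. Named regions were the 5 of highest fold per mark and locus, the widest, every H3K27ac region of 10-fold or more, and others where a sentence turns on them. No test was run, because 1 library per mark has no replicate. Alternatives changed the q limit, overlap rule, window, joining, background and region number. Gene positions and the list of other myeloid regulators were not used here, because the gene table is on GRCm38. Scripts ran in Python 3.11.15 with scipy 1.17.1, matplotlib 3.10.9, pandas 2.3.3 and numpy 2.4.6.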

Additional observations from a re-analysis of the deposited data

How the results depend on the processing

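Of 104 alternative values 77 kept within 1.5 times a count or rank, within the interval of a share, or at the same strongest region, and 27 moved. These labels are a loose guide to stability. The Cebpa share of H3K27ac regions (2 of 3) had an interval of 9.43 to 99.2%, which few values could leave. Ranks were compared without regard to the total number of domains. Under the q limit of 5, Cebpa ranked 16684 among 18750 domains and counted as kept, its main rank being 14543 among 30221. Spi1 counted as moved there, with rank 94 among 18750 and a main rank of 149 among 30221. Cebpa had the fewest H3K27ac regions of the 3 loci in each setting run, and Spi1 the most in each except joining over 1 kb and leaving out raised background. At a −log10 q of at least 5 the H3K27ac regions numbered 9 at Spi1, 1 at Cebpa and 7 at Irf8. Of these, 7 of 9 met H3K4me1 at Spi1 (77.8%, interval 40.0 to 97.2%). The share was 100% at Cebpa (1 of 1, interval 2.5 to 100%) and at Irf8 (7 of 7, interval 59.0 to 100%). At 10 they numbered 5, 0 and 3. H3K4me1 was met by 4 of 5 at Spi1 (80%) and by 3 of 3 at Irf8 (100%). No share could be given for H3K27ac at Cebpa. H3K4me1 regions then numbered 8, 9 and 12. At Cebpa 0 of 9 (0%) met H3K27ac, which was fixed in advance because no H3K27ac region was left there. Joining over 1 kb left 10 H3K27ac regions at Spi1, and 6 H3K4me1 regions at Spi1 and 11 at Cebpa. Windows wider by 10 kb at each end gave 5 H3K27ac regions at Cebpa. Without raised background there were 13 H3K27ac and 8 H3K4me1 regions at Spi1 and 12 H3K4me1 regions at Cebpa. With equal numbers of regions 9 of 10 H3K4me1 regions at Spi1 (90%) met H3K27ac. Whole-list shares under the q limits and with equal numbers are not given here. Domains ranked 77 (Spi1), 25435 (Cebpa) and 733 (Irf8) with gaps of up to 5 kb, 50 (Spi1) and 2095 (Irf8) by fold times width, and 94 (Spi1) at a −log10 q of at least 5. Fewer regions entered under the q limits and the background limit; the cause of other moves was not tested. No paired analysis was possible because there was 1 library per mark. The reads at a summit limit the H3K27ac calls, as no summit under 8 reads was called.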
